A study of Nannospalax ehrenbergi and Mus musculus with 25 samples.

Results

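Muscle of untreated blind mole rats (Spalax) was compared with uninjected-side muscle of Spalax that had grown a tumor elsewhere on the neck. Spalax is a long-lived subterranean rodent caught in the field. The comparison takes 8 of the 25 RNA-seq libraries of the series, chosen by their labels alone. They are 4 control libraries and 4 libraries of the uninjected side (UIS), and all 27988 genes of the deposited table are covered. The question behind it is whether muscle away from the tumor differs from muscle of animals that were never injected.

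All 8 libraries are labelled as muscle of the uninjected side, and none is of the tumor itself. The controls are 4 healthy females (animals 1042, 1075, 2095 and 6038) with no treatment in their labels. The UIS libraries come from 4 animals given a single injection of the carcinogen 3-methylcholanthrene (3MCA), which for Spalax was 1 mg in 500 μl. Females 600 and 976 carried a granuloma and were operated 14 and 16 months after injection. Female 2240 and male 2230 carried a fibrosarcoma and were operated after 18 and 30 months. Spalax of about 2 years and of 10 years or more were used, but the labels do not tie an age to an animal. Each library is 1 animal. The controls were biopsied under isoflurane and recovered, whereas the tumor-bearing animals were sampled under terminal isoflurane. In the sentences below, control values stand in the order 1042, 1075, 2095 and 6038, and UIS values in the order 600, 976, 2240 and 2230.

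3MCA is a polycyclic aromatic hydrocarbon that is activated by enzymes under the aryl hydrocarbon receptor and forms adducts on DNA, and sarcomas grow where it is injected. Skeletal muscle away from a tumor can receive cytokines and hormones through the blood, and such signals are known to act on muscle fibres through receptors of the interleukin 6 family and through glucocorticoids. A piece of muscle also holds vessels, nerve, connective tissue and blood, so its RNA is a mixture.

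Each library was first checked as muscle. Acta1, the actin of skeletal muscle, stood at 778695, 508363, 714486 and 573951 normalised reads in control and at 580374, 82517, 516536 and 638400 in UIS. Ckm, the creatine kinase of muscle, stood at 483562, 307134, 626116 and 522387 in control and at 376961, 96457, 362314 and 500094 in UIS. Both genes were abundant in all 8 libraries and lowest in UIS 976. Recovered reads were fewer in every UIS library (17025447 to 20197732) than in any control (21473077 to 23386729), with an exact two-sided permutation p of 0.0286, the smallest that 4 against 4 libraries allow. Genes with a read did not separate the groups (exact permutation p 0.771, n = 4 each). The 10 highest genes took 10.8% of the reads in UIS 976 and 14.2% to 18.2% in the other 7. UIS 976 lay over 4-fold above all other 7 libraries in 229 genes and over 4-fold below them in 327, against at most 65 genes in both directions together for any other library. A label of UIS 976 names its run with another animal number. All controls carry dual and all UIS libraries single sequencing indexes, so index and group cannot be told apart, and neither can the way of sampling.

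No gene passed the threshold of the main test. Of 13909 genes tested, limma called 0 (0%) at an adjusted p (Benjamini-Hochberg) no higher than 0.05, and the smallest adjusted p was 0.155. Without adjustment 2315 genes were under a p of 0.05 (16.6%), made up of 1100 with higher values in UIS (7.91%) and 1215 with lower values (8.74%). In 911 genes all 4 UIS values lay above all 4 control values (6.55%), and in 862 all lay below (6.2%), together 12.7%. The quasi-likelihood test of edgeR on the recovered reads also called 0 genes, with 2495 at an unadjusted p under 0.05. DESeq2 on the same reads called 516 of the 13649 genes to which it gave an adjusted p (3.78%), 289 higher (2.12%) and 227 lower (1.66%). Limma with a quality weight for each library called 417, 199 higher (1.43%) and 218 lower (1.57%). The calls of DESeq2 and of the weighted limma shared 313 genes, which are 60.7% of the former and 75.1% of the latter. Because the main test called none, genes are described below as higher or lower in UIS by their values, and within a list these words count members at an unadjusted p under 0.05. The shares above are the background for each list. Without control 2095 that background was 742 genes higher and 831 lower. Differences of single genes are UIS minus control on the log2 scale of that limma fit, ± SE, with n = 4 in each group, and each gene named that passed the filter had a limma adjusted p of at least 0.155.

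**Figure D1:**
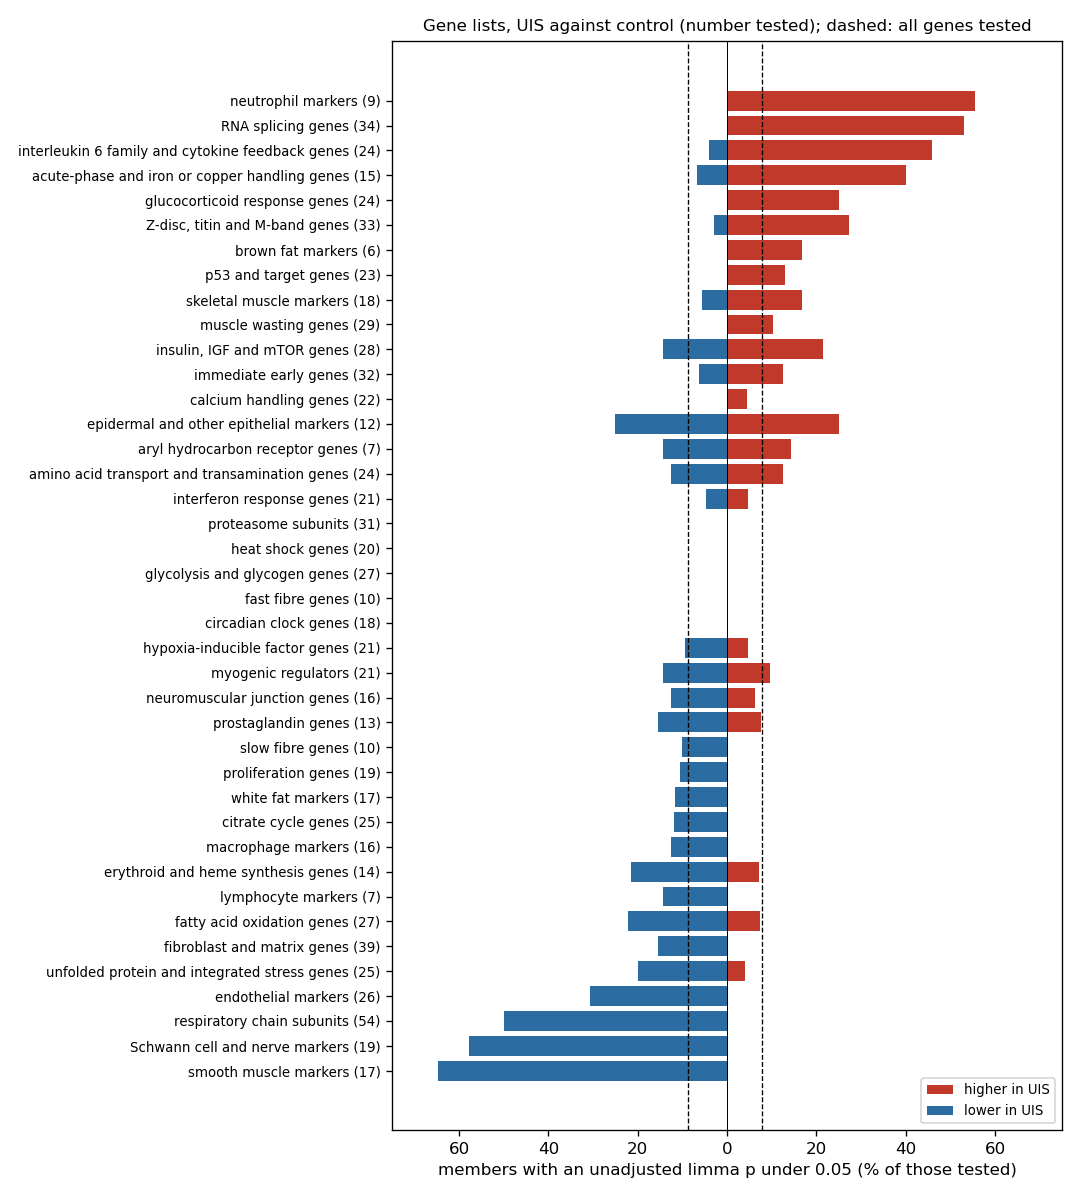
Share of the tested members of each gene list with an unadjusted limma p under 0.05, as bars in percent that point right for members higher in UIS and left for members lower in UIS. The dashed lines mark the shares over all 13909 genes tested (7.91% higher, 8.74% lower), and the number tested stands beside each name. The longest bars belong to smooth muscle, Schwann cell and nerve and respiratory chain genes to the left and to neutrophil, RNA splicing and interleukin 6 family genes to the right.

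Many genes of RNA splicing were higher in UIS. Of 34 members tested, 18 were higher at an unadjusted p under 0.05 and 0 were lower, 30 had a positive log2 difference, and in 19 all UIS libraries lay above all controls. The median log2 difference was 0.55, against -0.03 over all genes tested. Luc7l, a component of early spliceosomes, stood at 902, 945, 696 and 1039 normalised reads in control and at 2092, 1824, 1903 and 1599 in UIS, a log2 difference of 1.06 ± 0.18. Pnn, a protein of the exon junction, stood at 909.9, 1044, 1055 and 1116 in control and at 1738, 2994, 2237 and 1931 in UIS (1.08 ± 0.20). Srrm1 and Srsf5, an SR-related coactivator and an SR protein of splicing, differed by 0.75 ± 0.16 and 0.99 ± 0.21. In these 4 genes the groups did not overlap, and their limma adjusted p was 0.157. DESeq2 called 14 of the 34, all higher. Summed over the list, control held 78868 to 93393 normalised reads and UIS 111805 to 154756. The 4 tolerant libraries, from the injected side of Spalax that grew no tumor and with dual indexes like control, held 104584 to 124358. The count ranged from 17 without UIS 2240, control 1042 or control 1075 to 21 without UIS 976, and was 19 without control 2095.

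**Figure D2:**
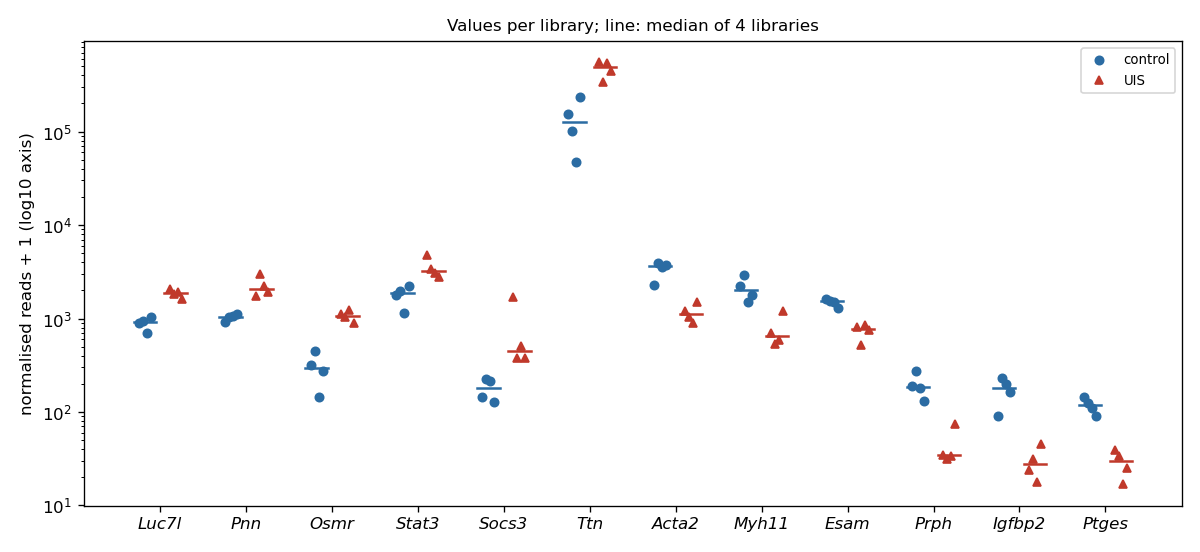
Normalised reads plus 1 on a log10 axis for 12 genes, with a point per library (circles for control, triangles for UIS) and a short line at the median of each group of 4. Luc7l, Pnn, Osmr, Stat3, Socs3 and Ttn lie higher in every UIS library, and Acta2, Myh11, Esam, Prph, Igfbp2 and Ptges lower.

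Markers of smooth muscle, which surrounds the vessels of a muscle, were lower in UIS. Of 17 tested, 11 were lower at an unadjusted p under 0.05 and 0 higher, the groups did not overlap in 9, and the median log2 difference was -0.79. Acta2, the actin of smooth muscle, stood at 2264, 3964, 3535 and 3723 in control and at 1194, 1034, 902 and 1511 in UIS, a difference of -1.53 ± 0.24. Myh11, its myosin heavy chain, stood at 2225, 2923, 1504 and 1778 in control and at 698, 528, 590.4 and 1189.9 in UIS (-1.52 ± 0.30). Every UIS library lay below every control in both, and among the UIS libraries 2230 was the highest. Tagln (-1.42 ± 0.26), a partner of actin, Actg2 (-2.46 ± 0.56), a second smooth muscle actin, and Ppp1r14a (-1.54 ± 0.33), an inhibitor of myosin phosphatase, did not overlap either. DESeq2 called 5 of the 17 lower and the weighted limma 7. The summed level was 27932 to 33660 in control and 13248 to 21275 in UIS, with 20740 to 23740 in the tolerant libraries. In bulk muscle fewer cells of a type and less RNA per cell cannot be told apart.

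Some endothelial and nerve markers were lower as well. Of 26 endothelial markers tested, 8 were lower and 0 higher, with a median log2 difference of -0.51. Esam, an adhesion molecule of endothelial junctions, stood at 1610, 1555, 1507 and 1284 in control and at 804, 524, 847 and 752 in UIS (-1.04 ± 0.19). Rgcc, a cell cycle regulator that vessels express, stood at 1941, 1968, 2356 and 1907 in control and at 486, 525, 1097 and 1184 in UIS (-1.42 ± 0.31). Cdh5, the cadherin of endothelial junctions, differed by -0.73 ± 0.20 and the receptor Tie1 by -0.66 ± 0.20, and in all 4 genes every UIS library was below every control. Kdr, a receptor for vascular endothelial growth factor, overlapped between the groups at -0.59 ± 0.20, and Pecam1, which all endothelium carries, differed by only -0.27 ± 0.17. Summed endothelial markers were 24694 to 30366 in control, 18430 to 22708 in UIS and 17000 to 22062 in tolerant libraries.

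Of 19 Schwann cell and nerve markers tested, 11 were lower, 0 were higher and the median log2 difference was -1.19. Prph, an intermediate filament of peripheral neurons, stood at 189.9, 273, 179.6 and 130.3 in control and at 33.8, 30.6, 32.7 and 73.9 in UIS, where 2230 was again the highest of the 4 (-2.20 ± 0.36). Every UIS library was below every control. Pmp22, a protein of peripheral myelin, differed by -0.92 ± 0.21 and the somatostatin receptor gene Sstr4 by -1.65 ± 0.42, also with no overlap. Nefl, a neurofilament, had at most 6.29 in any of the 8 libraries.

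Fibroblast and matrix genes were lower in some members, while the main collagens had negative differences but overlapped between the groups. Of 39 tested, 6 were lower, 0 were higher and the median log2 difference was -0.59. That was 15.4% of the list, against 16.6% over all genes in both directions and 8.74% lower. Members without overlap were 10.3%, against 12.7% over all genes in both directions. Ltbp4, which binds latent TGF-beta, stood at 5018, 4896, 4081 and 3829.8 in control and at 1855, 1732, 2370.1 and 2148 in UIS (-1.14 ± 0.18). Matn2, an adaptor protein of the matrix, stood at 664, 724, 409 and 743 in control and at 189, 146, 255 and 293 in UIS (-1.53 ± 0.29). Neither gene overlapped, and the same held for Sfrp5 (-2.08 ± 0.42), a secreted antagonist of Wnt, and Fbln2 (-1.15 ± 0.37), a fibulin of elastic fibres. Col1a1, Col1a2 and Col3a1 overlapped, with differences of -0.63 ± 0.56, -0.69 ± 0.53 and -0.92 ± 0.54. DESeq2 called 3 of the 39 lower. Without UIS 2240 the count at an unadjusted p under 0.05 was 18 lower of 39.

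**Figure D3:**
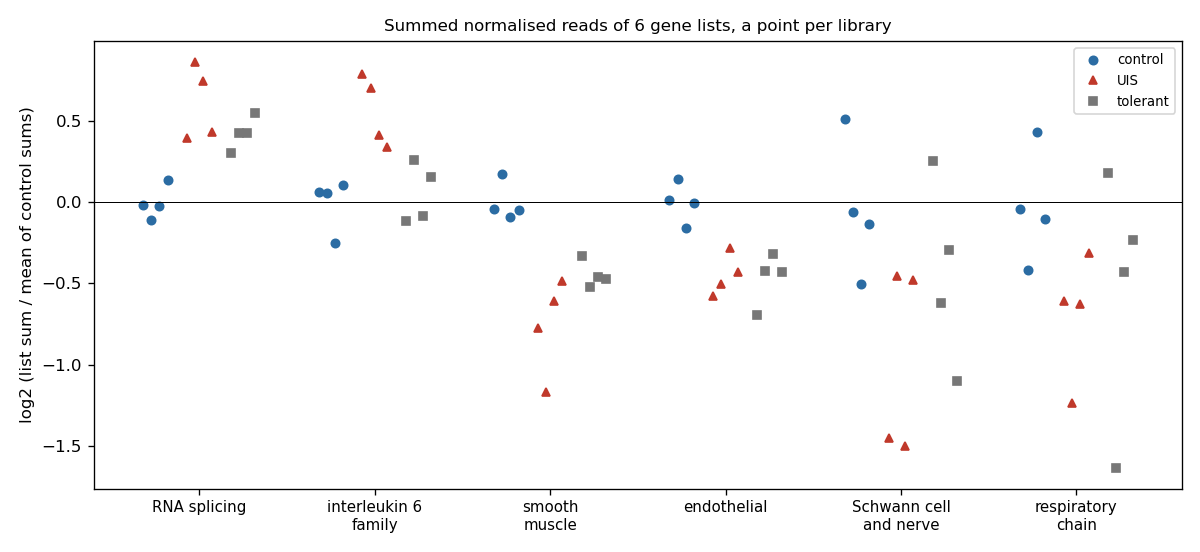
Summed normalised reads of 6 gene lists in each library, divided by the mean of the 4 control libraries, on a log2 axis with a point per library (circles for control, triangles for UIS, squares for tolerant). For smooth muscle, endothelial, RNA splicing and interleukin 6 family genes the UIS points lie outside the control points, while for Schwann cell and nerve and respiratory chain genes they overlap.

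In the list of the interleukin 6 family and its cytokine feedback far more members were higher than lower. Of 24 tested, 11 were higher and 1 was lower, and the median log2 difference was 0.55. In 7 every UIS library was above every control, and in 1 every UIS library was below. Osmr, the receptor subunit for oncostatin M, stood at 314, 450.3, 142 and 275 in control and at 1105, 1029, 1232 and 889 in UIS, a difference of 1.95 ± 0.32. Stat3, the transcription factor below these receptors, stood at 1788, 1965, 1135 and 2217 in control and at 4795, 3411, 3099.9 and 2795 in UIS (1.00 ± 0.25). Socs3, the feedback inhibitor that Stat3 switches on, stood at 142, 227, 215 and 127 in control and at 1688, 373, 513 and 374 in UIS (1.77 ± 0.47). All 3 were higher in each UIS library than in any control, and Stat3 and Socs3 were highest in UIS 600. Stat5a differed by 0.64 ± 0.16 without overlap. The shared receptor subunit gene Il6st, named after its values were seen, was at 1685, 1836, 1398 and 1862 in control and 2065, 1684, 2116 and 1355 in UIS and overlapped. Cish, a further feedback inhibitor named after its values were seen, stood at 107, 78.2, 51.1 and 34.8 in control and at 554, 2946, 115 and 117 in UIS (2.61 ± 0.94), highest in UIS 976 and without overlap. The kinase genes Jak1 (0.51 ± 0.17) and Tyk2 (0.77 ± 0.23), also named after their values were seen, did not overlap either. The member at an unadjusted p under 0.05 and lower was Cntf (-0.95 ± 0.39), a ligand of the family that Schwann cells make. Its groups overlapped, and the member below every control is another gene, not named here. DESeq2 called 7 of the 24 higher, and the count at an unadjusted p under 0.05 was 11 without UIS 976.

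Some acute-phase genes and markers of neutrophils were higher too, the latter mainly in the libraries of the granuloma animals among the UIS libraries, a difference that was not tested. Of 15 acute-phase and iron or copper handling genes tested, 6 were higher and 1 was lower, with a median of 0.49 and 3 higher without UIS 976. Cp, the copper carrier ceruloplasmin, stood at 117, 169.9, 105 and 75.6 in control and at 379, 247, 506 and 281 in UIS (1.59 ± 0.32), and Itih4, a plasma protease inhibitor, differed by 0.92 ± 0.21. Hp, haptoglobin, stood at 507, 1372, 1014 and 709 in control and at 5682, 2629.9, 1614 and 1615 in UIS (1.57 ± 0.44), with UIS 600 the highest. Of 9 neutrophil markers tested, 5 were higher and 0 lower, with a median of 1.48. Lcn2 counts in both lists. S100a9, which with S100a8 forms calprotectin, stood at 50.8, 22.5, 48.6 and 66.6 in control and at 1489, 558, 75.2 and 145 in UIS (2.79 ± 0.83). Lcn2, an iron-binding protein of neutrophil granules, stood at 65.2, 53.9, 74.8 and 72.6 in control and at 371, 503, 81.2 and 92.4 in UIS (1.54 ± 0.57). For S100a8 (2.29 ± 0.85) and Pglyrp1 (2.68 ± 1.08) the fibrosarcoma libraries overlapped with control and only UIS 600 and 976 were above it. The summed neutrophil markers were 407 to 701 in control, 5019 in UIS 600, 2245 in UIS 976, 670.4 in UIS 2240 and 662.5 in UIS 2230, and 391, 7243.5, 1853 and 190.3 in tolerant 2218, 2251, 2261 and 2375. The count of 5 became 2 without UIS 600, control 1075 or control 2095, and 3 without control 6038. None of the 16 markers in the table was at 0 in all 8 libraries. Their part in the other differences was not tested.

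Macrophage and lymphocyte markers did not share that direction. Of 16 macrophage markers, 0 were higher and 2 were lower, namely Cd14 (-1.16 ± 0.49) and Cd163 (-1.74 ± 0.60), both lowest in UIS 976. The count lower was 4 without UIS 600 and 1 without any 1 of the controls. Cd68, a lysosomal protein of macrophages, differed by 0.66 ± 0.39 and Csf1r, their growth factor receptor, by -0.35 ± 0.29, and both overlapped. The summed level was 9628 to 20398 in control and 5154 to 15078 in UIS. Of 7 lymphocyte markers tested the only 1 at an unadjusted p under 0.05 was Vpreb3, a gene of early B cells, at 56.3, 50.3, 64.9 and 246 in control and 15.7, 15.3, 10.9 and 14.2 in UIS (-2.48 ± 0.51). Cd3d (-0.39 ± 0.66) and Cd3g (-0.45 ± 0.90), parts of the T cell receptor complex, overlapped, and Cd3e was under the filter with at most 11.7. The summed lymphocyte level was 275 to 644 in control and 171 to 379 in UIS. Interferon response genes gave 1 higher and 1 lower of 21, Ddx58 (0.93 ± 0.29), a sensor of viral RNA, and Bst2 (-0.99 ± 0.34), which tethers virus particles. There were 4 lower without UIS 2230 or control 6038 and 3 higher without UIS 976. At an unadjusted p under 0.05 in both directions the shares were 12.5% for macrophage, 14.3% for lymphocyte and 9.52% for interferon response genes. Over all genes the share was 16.6%.

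Of 32 immediate early genes tested, 4 were higher, 2 were lower and the median was 0.22, a share of 18.8% past that p against 16.6% over all genes. Egr1, a transcription factor induced within minutes of many stimuli, stood at 81.7, 404, 106 and 23.9 in control and at 2231, 990.5, 769.8 and 654 in UIS (3.40 ± 0.74). Fosb, a partner in the factor AP-1, stood at 9.94, 17.1, 7.48 and 4.97 in control and at 113, 31.8, 116 and 44.1 in UIS (2.74 ± 0.55). In neither gene did the groups overlap, and UIS 600 was the highest for Egr1. Myc differed by 1.26 ± 0.33 with no overlap, and Zfp36, a factor of RNA decay, by 1.09 ± 0.36 with overlap, since control 2095 reached 862 and UIS 2230 was at 812. Controls and tumor-bearing animals were sampled in different ways, which cannot be told apart from the groups in these quickly induced genes.

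Genes of growth factor signaling went both ways. Of 28 insulin, IGF and mTOR genes tested, 6 were higher and 4 lower, with a median of 0.25. Igfbp2, a binding protein of the insulin-like growth factors, stood at 90.5, 232, 197 and 161 in control and at 22.9, 30.6, 17 and 44.1 in UIS (-2.53 ± 0.40). Igfbp6 stood at 1734, 1888, 1998 and 1361 in control and at 474, 385, 1029 and 1105 in UIS (-1.35 ± 0.35). Neither overlapped. Deptor, an inhibitor of mTOR, stood at 149, 164, 109 and 165 in control and at 233, 423, 272 and 263 in UIS (1.00 ± 0.26), and Tbc1d4, a regulator of glucose transporter traffic, differed by 1.26 ± 0.33, both with no overlap. On this list 3 were higher without UIS 600 or without any 1 of the controls, and 2 were lower without UIS 2240 or control 2095.

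Some genes of the sarcomere's frame were higher. Of 33 Z-disc, titin and M-band genes tested, 9 were higher and 1 was lower, with a median of 0.35. Ttn, the titin that spans from Z-disc to M-band, stood at 153411, 102499, 46918 and 236968 in control and at 551825, 341988, 541159 and 442598 in UIS (2.00 ± 0.54). Neb, the nebulin along the thin filament, stood at 154336, 102313, 68181 and 165133 in control and at 259461, 475802, 303212 and 269738 in UIS (1.46 ± 0.43). In both all UIS libraries were above all controls and control 2095 was the lowest of the 8. Myo18b (1.42 ± 0.38), Cmya5 (1.25 ± 0.36), Myom3 (1.31 ± 0.36) and the calcium release channel gene Ryr1 (0.85 ± 0.32) did not overlap either. The 10 fast fibre genes had 0 members at an unadjusted p under 0.05 and a median of -0.50, and of 10 slow fibre genes 1 was lower, the light chain gene Myl3 (-1.07 ± 0.34). Of 22 calcium handling genes Ryr1 was the only 1 at an unadjusted p under 0.05, 6 were higher without UIS 976, and of 18 skeletal muscle markers Ttn, Neb and Ryr1 were higher and Myod1 was lower.

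Nuclear genes for subunits of the respiratory chain were lower in UIS. Of 54 tested, all 54 had a negative log2 difference, 27 were lower at an unadjusted p under 0.05, the groups did not overlap in 16, and the median was -0.69. Atp5g1, a subunit of the ring of ATP synthase, stood at 14955, 11109, 20422 and 14566 in control and at 7307, 4082, 7098 and 9406 in UIS (-1.16 ± 0.29). Ndufs6, a subunit of complex I, stood at 3887, 3250.2, 6847 and 3204 in control and at 1972, 1678, 1786 and 2808 in UIS (-1.02 ± 0.28). In both every UIS library lay below every control, control 2095 was the highest and UIS 976 the lowest. Atp5g3 (-1.05 ± 0.31) and Atp5l (-0.91 ± 0.27), also of ATP synthase, did not overlap. DESeq2 called 5 of the 54 lower. Without control 2095 the count fell to 13 of 54, and without UIS 976 it was 24.

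Long and short genes differed in direction over the whole table. Spalax transcript lengths were not used here, so the longest protein-coding mouse transcript with the same symbol stood in for them, which gave a length to 11182 of the 13909 genes tested (80.4%). The median log2 difference was -0.40 over 462 genes of up to 1000 bases, -0.27 over 2137 genes of up to 2000, -0.07 over 4499 genes of up to 4000, 0.15 over 3406 genes of up to 8000 and 0.36 over 678 longer genes. In the shortest class 28.1% of the genes were lower and 2.81% higher at an unadjusted p under 0.05, and in the longest 2.06% were lower and 21.1% higher. Of the respiratory chain genes 28 had a mouse transcript of up to 1000 bases. Of 33 Z-disc, titin and M-band genes 13 had one of over 4000 bases and 2 one of up to 1000. The median length of that list was 3028 bases, against 3239 over all genes with a length. The gap between the longest and the shortest class, taken against the control mean of each gene, was 0.17, 0.39, -0.99 and 0.44 in the controls, 0.76, 0.95, 0.93 and 0.38 in UIS and -0.14 to 0.70 in the tolerant libraries. Control 2095 thus stood below all others and UIS 2230 within the other controls.

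**Figure D4:**
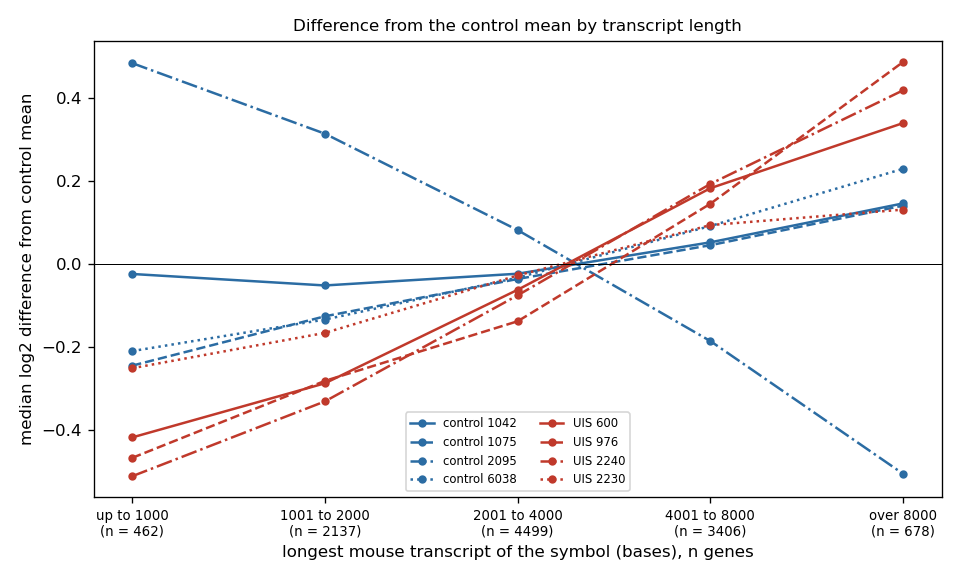
Median log2 difference from the control mean of each gene, over the tested genes of 5 classes of mouse transcript length (x axis, in bases), with a line per library (blue for control, red for UIS). Control 2095 runs from 0.48 down to -0.50, while UIS 600, 976 and 2240 start at -0.42, -0.47 and -0.51 and end at 0.34, 0.49 and 0.42.

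A fit was therefore added, after these values were seen, in which the trend with length was taken off each library. Over the 11182 genes with a length it left 1480 at an unadjusted p under 0.05, 760 higher (6.8%) and 720 lower (6.44%), against 849 (7.59%) and 995 (8.9%) of the same genes without it, and limma called 0 genes (smallest adjusted p 0.171). The respiratory chain count went from 27 to 13 lower of 54 with a median of -0.36, and that of Z-disc, titin and M-band genes from 9 to 6 higher of 33. Of 28 insulin, IGF and mTOR genes 2 were then higher and 2 lower, against 6 and 4 without it. The count lower went from 5 to 1 of 25 unfolded protein and integrated stress genes and from 6 to 3 of 27 fatty acid oxidation genes. Skeletal muscle markers went from 3 to 1 higher of 18. In that fit 18 of 34 splicing genes were higher, 13 of 17 smooth muscle markers, 12 of 19 Schwann cell and nerve markers and 10 of 26 endothelial markers lower, and 9 of 23 genes of the interleukin 6 list higher. The part of RNA quality or library preparation in the trend was not tested.

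Other lists of metabolic genes had smaller counts. Of 25 citrate cycle genes 3 were lower and 0 higher (median -0.34), namely Mdh1 (-1.10 ± 0.37), Sdhc (-0.69 ± 0.26) and Suclg1 (-0.66 ± 0.22), each without overlap, and 6 were lower without UIS 2230. Their share at an unadjusted p under 0.05 was 12%, against 16.6% over all genes in both directions. Of 27 fatty acid oxidation genes 6 were lower and 2 higher (median -0.33), with 3 lower without UIS 2240 and 2 without control 2095. Acads, which starts the oxidation of short chains, stood at 2163, 2105, 3466 and 3285 in control and at 1603, 823, 1449 and 1970.4 in UIS (-0.95 ± 0.29). Pdk4, the kinase that shuts off pyruvate dehydrogenase, was at 1392, 5062, 3358 and 805 in control and at 12427, 11065, 5053 and 4595 in UIS (1.85 ± 0.57), with UIS 2240 and 2230 inside the range of control. Ppard (0.70 ± 0.22) was higher and Etfdh (-0.54 ± 0.20) lower without overlap. Of 27 glycolysis and glycogen genes 0 were past that p in either direction (median -0.47), and 6 were lower without UIS 2230. The transaminase gene Gpt stood at 2549, 1468, 3344 and 2898 in control and at 677, 705, 832 and 1316 in UIS (-1.53 ± 0.30), and Got1, a second transaminase, differed by -0.92 ± 0.24, also without overlap. In the same list of 24 amino acid genes, with 3 higher and 3 lower, Slc3a1, a subunit of the cystine transporter, stood at 542, 516, 478 and 467 in control and at 1090.2, 979.9, 1797 and 1051 in UIS (1.25 ± 0.22) and Slc38a6 differed by 1.15 ± 0.36.

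Heme and red cell genes did not move as 1 group. Alas2, the enzyme that starts heme synthesis in red cell precursors, stood at 6.63, 15.3, 63.6 and 35.8 in control and at 158, 239, 147 and 375 in UIS (3.20 ± 0.63). The groups did not overlap, and UIS 2230 was the highest. Alas1 (-0.82 ± 0.30), the enzyme of the same step in other cells, and Alad (-0.72 ± 0.32), of the step that follows, were lower at an unadjusted p under 0.05 with overlap in at least 1 library of each. The list of 14 gave 1 higher and 3 lower. In 11 of the 14 the difference was negative, the median was -0.41, and in 3 every UIS library lay below every control. The count lower ranged from 0 without control 6038 to 5 without UIS 2230. The globin gene Hbb, named after its values were seen, overlapped at 3047, 4268, 7881 and 7865 in control and 5992, 1088, 6479 and 27617 in UIS.

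Among single genes with the smallest p and no overlap, Abi3, an actin regulator of blood and immune cells, stood at 187, 256, 215 and 265 in control and at 561, 464, 624 and 753 in UIS (1.37 ± 0.22). C2cd5, which takes part in glucose transporter traffic, stood at 880.1, 783, 771 and 1071 in control and at 1709, 2123, 1608 and 1750.1 in UIS (1.04 ± 0.18). Napb (1.85 ± 0.34), an adaptor of vesicle fusion, Lmo7 (1.00 ± 0.18), Arhgap12 (0.92 ± 0.17) and Akap8 (1.11 ± 0.21) were the others higher. Ptges, which makes prostaglandin E2, stood at 142, 125, 109.8 and 90.5 in control and at 38.6, 33, 15.8 and 24.2 in UIS (-2.08 ± 0.35). Cers4, a ceramide synthase, stood at 348, 441, 394 and 382 in control and at 178, 113, 162 and 172 in UIS (-1.33 ± 0.22). Tmsb4x (-1.71 ± 0.30), which binds actin monomers, Ddah2 (-1.70 ± 0.31), which acts on nitric oxide synthesis, and Fam195a (-1.35 ± 0.22) were lower, with Tmsb4x lowest in UIS 976. The limma adjusted p of these 11 genes was 0.155 to 0.157. The list of 13 prostaglandin genes gave Ptger1 (1.29 ± 0.42) higher, and Ptges and Ptges2 (-0.76 ± 0.32) lower.

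Some of the largest differences without overlap were in genes with low values in control or in UIS, where the added 1 understates a change. Tgm5, a transglutaminase, stood at 0, 10.8, 1.25 and 0 in control and at 22.9, 33, 30.3 and 31.3 in UIS (3.73 ± 0.78), and Tgm7, of the same family, at 55.2, 166, 61.1 and 13.9 in control and at 557, 541, 436 and 209 in UIS (2.91 ± 0.65). Psma8, a proteasome subunit of the germ line, was at 5.52, 0.899, 11.2 and 1.99 and 90.4, 20, 26.7 and 17.1 (2.76 ± 0.73). Clec2l, a lectin-like receptor gene, stood at 54.1, 127, 236 and 320.3 in control and at 22.9, 2.36, 17 and 15.6 in UIS (-3.61 ± 0.72), Dmkn at 23.2, 31.5, 28.7 and 27.9 and 8.44, 4.71, 0 and 4.26 (-2.80 ± 0.68), and Arhgef37 at 47.5, 54.8, 16.2 and 314 and 14.5, 4.71, 15.8 and 9.95 (-2.46 ± 0.80). Of 12 epidermal and other epithelial markers tested, Tgm5 and Dsp (1.25 ± 0.37) were among 3 higher and Dmkn and Anxa8 (-0.98 ± 0.26) among 3 lower. Krt5 was at 0 in all 8 libraries and Krt14 at no more than 0.995.

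**Figure D5:**
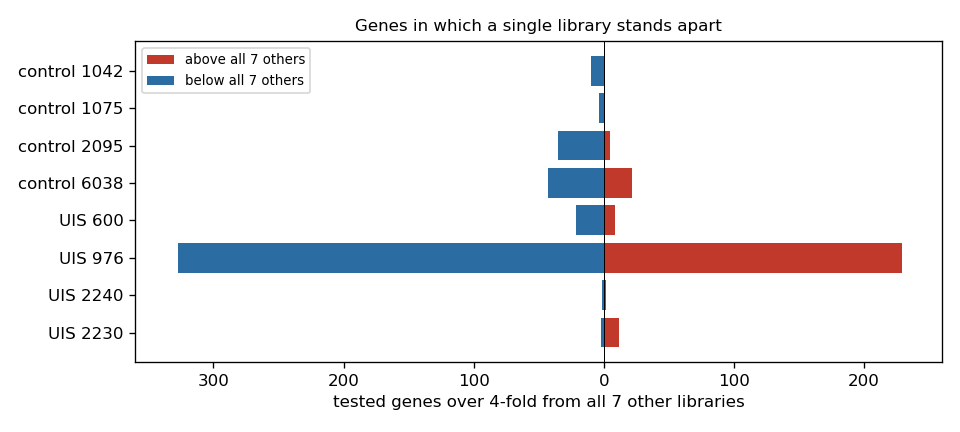
Number of tested genes in which a library lies over 4-fold above (right) or below (left) all 7 others, with a bar per library. UIS 976 has 229 above and 327 below, and the 7 others have at most 22 above and 43 below.

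In some genes a single library stood far from the others. Cdkn1a, an inhibitor of the cell cycle, stood at 60.7, 56.6, 68.6 and 50.7 in control and at 84.4, 4011, 251 and 101 in UIS (2.36 ± 1.03). Foxo1, a transcription factor of fasting and atrophy, stood at 114, 151, 81.1 and 147 in control and at 178, 2990.3, 369 and 266 in UIS (1.99 ± 0.75). The groups did not overlap in either gene, but UIS 976 was far above the other 3. Fbxo32 and Trim63, ubiquitin ligases of muscle wasting named after their values were seen, were at 38722 and 36366 in UIS 976 respectively. Fbxo32 was also above all controls in UIS 600 (9650, against at most 4822 in control), while UIS 2240 and 2230 in Fbxo32 and the other 3 UIS libraries in Trim63 were within or below the controls. The summed muscle wasting genes were 64249 to 90198 in control, 294986 in UIS 976 and 75570 to 95445 in the other UIS libraries, and 353178 in 1 tolerant library, 2375. The sum of glucocorticoid response genes was 358553 in UIS 976, 285160 in tolerant 2375 and 53553 to 74753 in control. Of 24 glucocorticoid response genes 6 were higher, among them Zbtb16 (1.67 ± 0.57), 5 without UIS 976 and 3 without control 1075 or 2095. Of 29 muscle wasting genes 3 were higher, 4 without UIS 976, 5 without UIS 2230 and 1 without control 2095. Of 23 genes of p53 and its targets 3 were higher, namely Cdkn1a, Mdm2 (0.89 ± 0.35), which degrades p53, and its relative Mdm4 (1.11 ± 0.43), and UIS 976 had the highest value of each. That count was 0 without control 2095. At an unadjusted p under 0.05 the shares were 25% for glucocorticoid response, 10.3% for muscle wasting and 13% for p53 genes, against 16.6% over all genes in both directions.

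The summed brown fat markers were 1229.5 to 1565 in control, 19739.7 in UIS 2230, 7778 in UIS 976, 1732 in UIS 2240 and 1627 in UIS 600. Ucp1, which uncouples respiration in brown fat mitochondria, stood at 1.1, 0, 0 and 0.995 in control and at 4.82, 1.18, 2.42 and 12999.6 in UIS, and Cidea, a lipid droplet protein, at 25.4, 19.8, 91.1 and 39.8 in control and at 10.9, 8.24, 19.4 and 5053 in UIS. Ucp1 fell under the filter, Elovl3 had at most 1.21, and the only brown fat marker of 6 tested at an unadjusted p under 0.05 was Dio2 (1.03 ± 0.40), which activates thyroid hormone. In UIS 976 Dio2 was at 160, so most of the sum of that library came from list members not named here. The summed white fat markers were 22124 to 49946 in control and 18419.6 to 33180.4 in UIS 600, 976 and 2240, and UIS 2230 had the highest sum of the 8, at 52279.9. Adipoq, a hormone of white fat, stood at 98.3, 3613, 1202 and 919 in control and at 45.8, 55.4, 616 and 1346 in UIS (-1.88 ± 1.30) and Lep, leptin (-2.26 ± 1.41), varied as widely. Plin1, a coat protein of lipid droplets, stood at 36.4, 760.4, 208 and 262 in control and at 3.62, 8.24, 125 and 374 in UIS. UIS 2230 was the highest of the UIS libraries for Adipoq, Lep and Plin1, below control 1075 in each. Of 17 white fat markers 2 were lower, Cfd (-0.72 ± 0.26) and Fabp4 (-1.05 ± 0.43), both with overlap. The count lower was 6 without UIS 2230 and 0 without control 1075 or control 2095. At an unadjusted p under 0.05 the share of white fat markers was 11.8%, against 16.6% over all genes in both directions.

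The counts in the remaining lists were small. Of 21 myogenic regulators 3 were lower and 2 higher. Myod1, the factor that starts muscle differentiation, stood at 1762, 826, 1660.2 and 991 in control and at 766, 382, 436 and 606 in UIS (-1.24 ± 0.31), and Tcf15 differed by -1.46 ± 0.32, both without overlap, while Pax3 (2.25 ± 0.92), a factor of muscle precursors, overlapped. Of 16 neuromuscular junction genes 2 were lower, Etv4 (-1.48 ± 0.40) and the acetylcholine receptor gene Chrna1 (-1.31 ± 0.45), and 1 was higher, Chrnb1 (0.55 ± 0.22). Of 25 genes of the unfolded protein and integrated stress responses 5 were lower and 1 higher, with 2 lower without control 1075 and 3 without UIS 600, UIS 2240 or control 2095. Atf5, a factor of mitochondrial stress, stood at 2521, 3177, 5051 and 2050.2 in control and at 1290.4, 1471, 1548 and 1257 in UIS (-1.12 ± 0.27), with Atf4 (-0.71 ± 0.24), Ddit3 (-0.51 ± 0.21) and Sdf2l1 (-0.82 ± 0.31) also lower but overlapping. Of 7 aryl hydrocarbon receptor genes tested, 1 was higher and 1 lower. The higher was Arnt (0.58 ± 0.16), the partner of the receptor, without overlap. Of 21 hypoxia-inducible factor genes Hif3a (2.04 ± 0.68) was higher and Egln2 (-0.74 ± 0.20) and Ndrg1 (-0.82 ± 0.25) were lower. Of 19 proliferation genes 2 were lower, Mcm2 (-0.93 ± 0.27) and Mcm5 (-1.78 ± 0.72), both part of the replicative helicase. At an unadjusted p under 0.05 the shares were 14.3% for hypoxia-inducible factor and 10.5% for proliferation genes, against 16.6% over all genes in both directions. Of 20 heat shock genes, 18 circadian clock genes and 31 proteasome subunits, 0 were at an unadjusted p under 0.05 in either direction, with medians of -0.10, 0.41 and -0.03. Without UIS 976, 3 proteasome subunits and 4 hypoxia-inducible factor genes were lower, and without UIS 600, 5 amino acid genes were higher. At 4 libraries a group these tests do not show that such genes are equal.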

How the data were processed

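Muscle RNA of 4 control and 4 UIS Spalax was sequenced. Reads were trimmed with Trimmomatic, aligned to the Spalax genome with TopHat (version 1.4.1 in the submitters' processing notes) and counted per gene with HTSeq, and the authors deposited a signal per gene, the count divided by 1 size factor per library. The strand setting of the counting is not given in the sources used here. A column of the deposited table whose unit was entered as a score, that of UIS 2230, holds the same kind of value. In the file the letter t of 2387 gene names is a comma, and it was read as t. Dividing by the value of 1 read gave whole numbers (within 0.01) for 100% of the values, so that depth was known, at 17025447 to 23386729 reads a library. A value of 10 then rests on 7.03 to 11.1 reads.

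Limma 3.58.1 in R 4.3.3 was run on log2(value + 1) with a mean-variance trend, on genes with a value of at least 10 in at least 4 of the 8 libraries, with Benjamini-Hochberg adjustment, and called 0 genes. EdgeR 4.0.16 and DESeq2 1.42.0 on the recovered reads called 0 and 516. All 3 tools were tested on simulated data. These had the same dispersion for every gene, no library that stood apart and no trend with length. They therefore cannot tell which number of calls is right. The number of libraries, not of genes, is the n of each test. Genes were named by a rule: the 10 smallest p without overlap in each direction, the 6 largest differences, up to 4 members with the smallest p in each of 40 lists, and the first 3 markers of each cell type. Some genes that this rule names are not reported here. The members and lists were chosen with earlier results of these data known. Lists share members, and such a gene counts in each, as do Lcn2, Pdk4, Cdkn1a, Foxo1 and Chrna1. Other pseudocounts, filters, scalings, tools and sets of libraries were tried. The mouse libraries were not used here. The tumor libraries were not compared, but they entered 1 alternative fit, a model over all 16 Spalax libraries.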

Additional observations from a re-analysis of the deposited data

Results flagged for a closer look

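In each group of 4 libraries the highest or lowest value was set against the range of the 4 on the log2 scale, a check that chance alone trips in about 1 of 20 groups. With 129 named genes past the filter, chance alone would trip it for some genes in each group. UIS 976 stood apart from the other 3 UIS libraries in the share of reads taken by the 10 highest genes (10.8415%) and in 8 of the genes named above. It was low for Acta1 (82517 normalised reads), the ATP synthase gene Atp5g3 (4314), the citrate cycle gene Mdh1 (8031), the macrophage marker Cd14 (37.69) and Tmsb4x (1638). It was high for Trim63 (36366), Mdm2 (13719) and Ptger1 (564.1).

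UIS 2230, the male and the animal sampled longest after injection, was high for the brown fat genes Ucp1 (13000) and Cidea (5053), the smooth muscle gene Ppp1r14a (105.2) and the nerve gene Prph (73.93). UIS 600 was the high library for Elovl3, at only 1.206.

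Among the controls, 1042 was high for Cntf (146.9) and low for Cd68 (57.42) and Sstr4 (32.02). Control 2095 was high for Egln2 (1953) and Rgcc (2356). Control 6038 was high for Vpreb3 (245.7) and low for Cd3d (4.974).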

How the results depend on the processing

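No paired analysis was possible because control and UIS libraries come from different animals. Limma, edgeR and DESeq2 differed in the number of genes called. The main limma fit and edgeR called 0, DESeq2 516 and limma with quality weights 417, and with the fibrosarcoma UIS libraries alone limma called 1, Aprt (log2 difference -4.79, adjusted p 0.0141), a purine salvage gene. Leaving out each library in turn left 0 called in all 8 fits. At an unadjusted p under 0.05 the count ranged from 1607 without control 2095 to 2475 without UIS 2230, and with the trend with transcript length removed, an alternative chosen after seeing the data that tests fewer genes, it was 1480. Genes without overlap numbered 4182 with granuloma UIS alone and 3791 with fibrosarcoma UIS alone, where fewer libraries have to separate, and ranged from 2123 to 2768 when each library was left out, with 2768 without UIS 2230 and 2702 without control 6038. Of 2695 log2 differences of named genes under the alternatives 2551 kept their direction and stayed past the threshold or short of it, 137 kept their direction and passed it with DESeq2 or quality weights, and 7 changed sign, all in genes that overlap between the groups: with fibrosarcoma UIS alone Adipoq (0.20), Col1a1 (0.16) and Col1a2 (0.088), without UIS 976 Cd3d (0.15) and Cd3g (0.17), and Cd3g also with quality weights (0.24) and without control 2095 (0.0041). With 1 library left out Cd3d ranged from -0.79 to 0.15 and Cd3g from -1.08 to 0.17. The cause was not tested.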
